A study of Homo sapiens with 9 samples.

Results

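Kinesins are motor proteins that use ATP to move along microtubules or to change how microtubules grow and shrink. The human genes named KIF or KIFC followed by a digit, the kinesin-associated protein KIFAP3 and the kinesin light chains KLC1 to KLC4 were taken by symbol from the protein-coding genes of the count matrix, with no measured value used to pick members, which gave 47 of 60660 genes. The family itself was chosen with earlier results of these data known. They were divided by known role into 14 mitotic kinesins, 20 transport kinesins with their light chains and adaptor, and 13 others that act in microtubule turnover, cilia or signalling or whose role is less well defined. Mitotic kinesins build, slide and shorten spindle microtubules and act at cytokinesis, and their transcripts are known to accumulate late in the cell cycle. Transport kinesins carry vesicles, organelles and ciliary cargo towards the plus ends of microtubules, apart from the minus-end-directed KIFC proteins. Kinesin-1 is built from KIF5 heavy chains and KLC light chains, and heterotrimeric kinesin-2 from KIF3A, KIF3B or KIF3C, and KIFAP3.

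The libraries were made from OVCAR3, an ovarian cancer cell line derived from a high-grade serous carcinoma, to ask how the level of CTCFL (also BORIS), a germline paralogue of the DNA-binding protein CTCF, bears on transcription. Control cells carried the LacZ plasmid pCpGfree-vitroHLacZ per the study's methods, although their label gives no CTCFL treatment. CTCFL-OE cells received 2 µg of the expression plasmid pCpGfree-vitroHBORIS by transient Xfect transfection and were collected after 48 h. CTCFL-KD cells came from earlier knockdown experiments and were compared with the same plasmid Controls, so the knockdown cannot be told apart from differences in how and when the cells were handled. Each group had 3 libraries, described as biological replicates, each pooled from technical replicates. Library totals ran from 14332622 counts in CTCFL-KD replicate 1 to 24490080 counts in Control replicate 2.

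CTCFL itself was measured first as a check of the labels. Its counts in replicates 1, 2 and 3 were 6, 9 and 10 in Control, 36, 34 and 72 under CTCFL-OE, and 0, 1 and 0 under CTCFL-KD. All 3 groups were separate and in the order of their labels. Levels are given as CPM (counts in each 1e6 counts) on library sizes scaled by the trimmed mean of M-values (TMM), and 3 counts, the limit that a count of 0 allows for counting error, equal 0.271 CPM in CTCFL-KD replicate 1 and 0.164 CPM in replicate 3. CTCFL passed the low-count filter only through the CTCFL-OE libraries, so no test of it is given. For the genes below, each adjusted p is by edgeR's quasi-likelihood test and Benjamini-Hochberg adjustment unless stated otherwise. All 8 markers of ovarian carcinoma cells passed the low-count filter, and the most abundant, KRT8, averaged 2372 CPM over the 9 libraries.

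The filter on low counts kept 17794 genes, among them 44 of the 47 kinesin genes. KIF2B, KIF19 and KIF25 did not pass it. KIF2B, a mitotic kinesin, had 0 counts in all 9 libraries. A gene was called when its log2 fold change lay beyond 1 and its adjusted p was under 0.1 for CTCFL-OE vs Control or under 0.05 for CTCFL-KD vs Control, the thresholds of the study's own methods. In CTCFL-OE vs Control, 1 kinesin gene was called higher, KIF1A, and 1 lower, KIF3C, both transport kinesins, beside 1.37% of all genes tested called higher and 0.702% called lower. By adjusted p alone, 2 kinesin genes were higher and 1 was lower, beside 1.99% and 1.16% of all genes. In CTCFL-KD vs Control, 1 kinesin gene was called higher, again KIF1A, beside 15.3% of all genes, and 10 were called lower, beside 7.94%. The 10 became 5 without CTCFL-KD replicate 1 and 4 with an offset for length and GC content. By adjusted p alone, 4 kinesin genes were higher, beside 21.4% of all genes, and 20 were lower, beside 16.8%. The median log2 fold change of the 44 kinesin genes was 0.04 under CTCFL-OE and -0.35 under CTCFL-KD, where the medians of all genes tested were -0.01 and 0.08. The other 20 kinesin genes tested passed neither criterion in CTCFL-KD vs Control, with log2 fold changes from -0.41 to 0.55. Leaving out 1 library moved the CTCFL-OE vs Control count of 2 to 4 without CTCFL-OE replicate 1, to 0 without CTCFL-OE replicate 2, to 1 without CTCFL-OE replicate 3, and to 0, 1 and 0 without Control replicate 1, 2 or 3. The 368 genes called among all tested became 1184, 79 and 109 without CTCFL-OE replicate 1, 2 or 3, 45, 61 and 44 without Control replicate 1, 2 or 3, and 980 without CTCFL-KD replicate 1, so the shares of all genes in that comparison rest on single libraries too. Both comparisons use the same Controls and their values are therefore given side by side. Every count of 0 called in CTCFL-OE vs Control below stands beside the same shares of all genes, 1.37% and 0.702%.

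**Figure D1:**
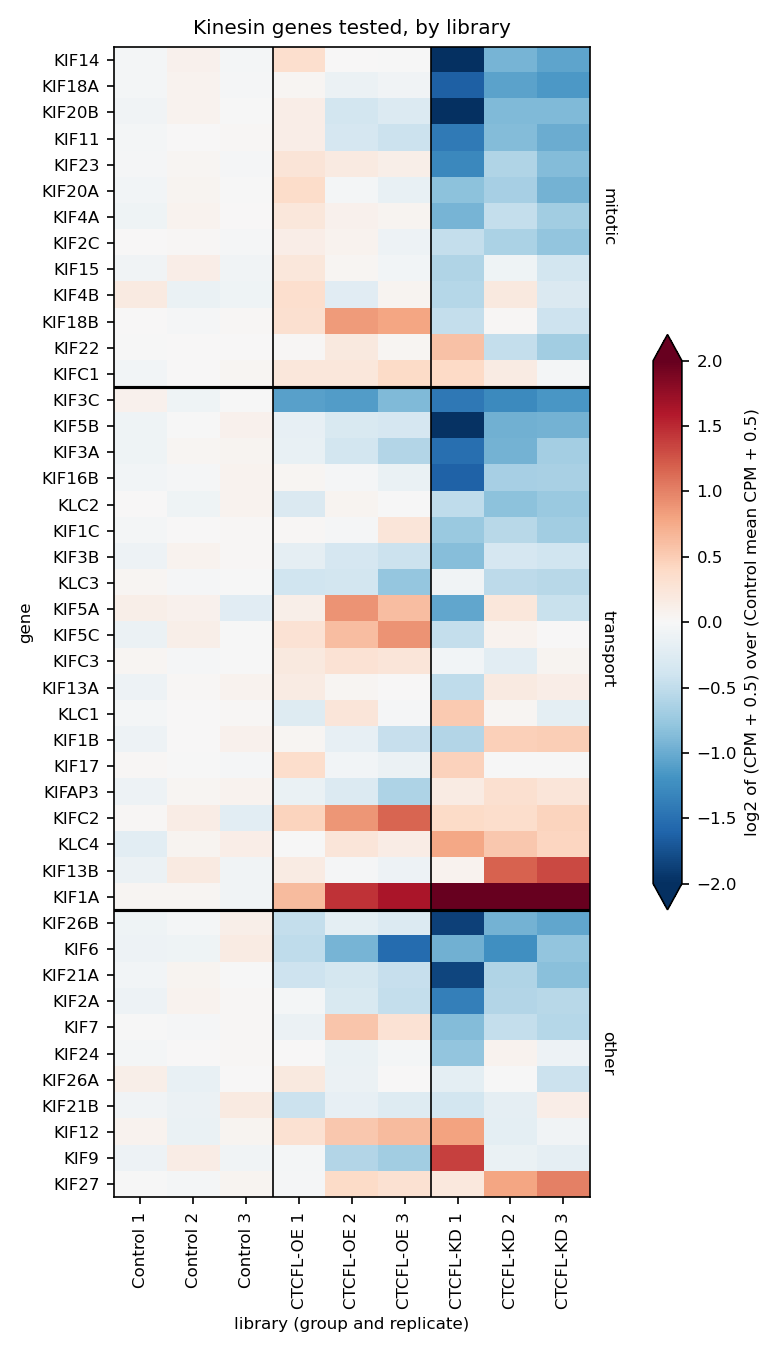
Each line is 1 of the 44 kinesin genes tested and each column 1 library, with genes grouped by role and the colour giving the log2 ratio of CPM to the Control mean after adding 0.5 CPM to both. KIF1A is high and KIF3C low in all 6 CTCFL-OE and CTCFL-KD libraries, and most mitotic kinesins are low in the 3 CTCFL-KD libraries.

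Most mitotic kinesins tested were lower under CTCFL-KD, and none was called under CTCFL-OE. Their summed level per kb of exon was 174.6 ± 4.51 CPM (SD, n = 3) in Control, 184.4 ± 14.65 under CTCFL-OE and 109.4 ± 9.04 under CTCFL-KD. The 3 CTCFL-KD sums, 104.2, 119.8 and 104.1, all lay below the lowest Control sum, 170.1, whereas the CTCFL-OE sums of 201.1, 178.6 and 173.5 overlapped the Controls. The sums of the other roles also fell: those of the transport kinesins were 151.7 ± 5.56 in Control and 107.5 ± 18.4 under CTCFL-KD, and those of the others 26.5 ± 0.793 and 19.9 ± 0.42, again with every CTCFL-KD sum below every Control sum. In these roles the CTCFL-OE sums per kb lay below the Controls too. They were 141.5, 136.9 and 135.4 for transport kinesins (lowest Control 145.5) and 24.7, 24.5 and 23.2 for the others (lowest Control 25.6). Without division by exon length the transport sums overlapped, at 1141, 1104 and 1077 CPM under CTCFL-OE and 1139, 1202 and 1227 CPM in Control. The transport sum was carried by abundant genes, as KIF5B alone went from 44.1 to 18.9 CPM per kb, while the median log2 fold change of that role was -0.09. In bulk RNA, fewer dividing cells and less of these RNAs per cell cannot be told apart. Of the 13 mitotic kinesins tested, 4 were called lower under CTCFL-KD, another 4 were lower by adjusted p alone, beside 7.94% of all genes called lower and 16.8% lower by adjusted p with any fold change, and none was higher. The 4 called became 2 without CTCFL-KD replicate 1 (KIF14 and KIF18A) and 1 with an offset for length and GC content (KIF14), while 8 or 9 were lower by adjusted p in every alternative run. The median log2 fold change was -0.69 under CTCFL-KD and 0.09 under CTCFL-OE. Under CTCFL-OE, edgeR called 0 of the 13, beside 1.37% of all genes called higher and 0.702% called lower. DESeq2 also called 0, and 1 of the 13 had an unadjusted p under 0.05. The mitochondrial share of counts was 11.8%, 9.64% and 7.8% with CTCFL-KD and 6.52%, 6.31% and 6.16% in Control, and its part in these falls was not tested.

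KIF11, the homotetrameric kinesin-5 that slides antiparallel spindle microtubules apart, had the highest Control level per kb of the mitotic kinesins, at 29.0 ± 0.614 CPM per kb (SD, n = 3). Its levels in replicates 1, 2 and 3 were 151, 156 and 157 CPM in Control, 170, 122 and 115 CPM under CTCFL-OE, and 57.8, 84.7 and 77.3 CPM under CTCFL-KD. The CTCFL-KD values all lay below the Controls, and the CTCFL-OE values lay on both sides of them. KIF14, a kinesin-3 needed for cytokinesis, measured 38.8, 42.3 and 38.9 CPM in Control, 50.9, 40.1 and 39.7 CPM under CTCFL-OE, and 5.77, 20.9 and 19 CPM under CTCFL-KD. KIF18A, a kinesin-8 that limits the movements of chromosomes at the metaphase plate, measured 45.2, 48.5 and 45.5 CPM in Control, 47.4, 42.5 and 44.2 CPM under CTCFL-OE, and 14.6, 21.8 and 20.7 CPM under CTCFL-KD. Every CTCFL-KD library was again under every Control library for both genes, with replicate 1 the lowest. KIF20B, a kinesin-6 of the late stages of cytokinesis, measured 98.8, 109 and 104 CPM in Control, 113, 80.6 and 85.4 CPM under CTCFL-OE, and 22.3, 56.1 and 56.3 CPM under CTCFL-KD.

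The log2 fold changes in CTCFL-KD vs Control were -1.07 ± 0.21 (SE) for KIF11, -1.38 ± 0.36 for KIF14, -1.28 ± 0.18 for KIF18A and -1.20 ± 0.31 for KIF20B. The KIF11 and KIF20B calls were lost without CTCFL-KD replicate 1 (-0.93 and -0.88), and those of KIF11, KIF18A and KIF20B with the offset for length and GC content (-0.76, -0.91 and -0.81), each still past the adjusted p. In the fit of all libraries the adjusted p by edgeR's quasi-likelihood test and Benjamini-Hochberg adjustment was 0.00248, 0.0117, 0.000378 and 0.0106. In CTCFL-OE vs Control the same genes had log2 fold changes of -0.19, 0.12, -0.05 and -0.16, with adjusted p from the same test between 0.658 and 0.9. KIF2C, a kinesin-13 that depolymerises microtubules at centromeres, and KIF20A, a kinesin-6 of the central spindle, were lower under CTCFL-KD by adjusted p alone, with log2 fold changes of -0.63 ± 0.16 and -0.81 ± 0.18. The 9 mitotic kinesins not called under CTCFL-KD had log2 fold changes from -0.90 to 0.18. KIFC1, a minus-end-directed kinesin-14 named here after its values were seen, was the only tested mitotic kinesin with a value above 0, and it did not pass the test (adjusted p of 0.401 by edgeR with Benjamini-Hochberg adjustment). KIF4A and KIF4B are near-identical copies, so how their reads were divided is uncertain.

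The short motifs TTTGAA and CCAAT occurred in promoters of most mitotic kinesins and of a smaller part of the kinesins of the other roles. That difference was not tested. Promoter stretches of the 4 mitotic kinesins called lower under CTCFL-KD are shown for that reason. The RefSeq promoter table (GRCh38.p14) held 46 promoters for 37 of the 47 kinesin genes, each from 250 bases before to 50 after a transcription start. It held none for KIF5A, KIF13B, KIF19, KIF21B, KIF26B, KIF27, KIFC2, KIFC3, KLC2 and KLC4. The letters TTTGAA, known as the cell cycle genes homology region (CHR) element, were searched on both strands and occurred in at least 1 promoter of 10 of the 14 mitotic kinesins, 1 of 14 transport kinesins and 0 of 9 others with a promoter, beside 15.2% of all 35116 promoters of this length and 18.2% of all genes with a promoter. The letters CCAAT, also on both strands, occurred for 11 of 14, 4 of 14 and 3 of 9 genes, beside 34.6% of all promoters and 39.7% of genes. TTTGAA and CCAAT stood together in a promoter of 9 mitotic kinesins, 1 transport kinesin (KIF5B) and 0 of the others, beside 5.9% of all promoters. A second form of the CHR element, TTCGAA, did not share this pattern. It occurred for 1 of 14 mitotic kinesins, 0 of 14 transport kinesins and 1 of 9 others, beside 1.82% of all genes with a promoter. The motifs do not overlap each other in the stretches shown, which run 5′ to 3′ on the gene's strand with each match in capitals (TTCAAA and ATTGG are the same motifs read on the opposite strand). In KIF20B, where the stretch ends at the edge of the promoter, 2 TTTGAA matches follow each other without a gap. The stretches lie at chr10:92593057-92593127 on the plus strand for KIF11, chr1:200620725-200620793 on the minus strand for KIF14, chr11:28108141-28108221 on the minus strand for KIF18A and chr10:89701439-89701639 on the plus strand for KIF20B. A match describes the letters only, and no binding was measured.
KIF11: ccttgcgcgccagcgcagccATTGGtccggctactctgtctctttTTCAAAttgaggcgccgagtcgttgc
KIF14: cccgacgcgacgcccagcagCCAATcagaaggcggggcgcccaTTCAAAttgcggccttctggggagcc
KIF18A: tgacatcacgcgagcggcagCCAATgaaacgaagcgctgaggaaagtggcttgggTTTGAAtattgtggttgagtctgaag
KIF20B: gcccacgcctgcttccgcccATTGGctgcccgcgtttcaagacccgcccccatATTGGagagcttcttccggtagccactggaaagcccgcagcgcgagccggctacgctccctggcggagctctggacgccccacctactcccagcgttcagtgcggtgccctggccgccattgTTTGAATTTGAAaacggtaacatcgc

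Relative to the start of transcription, counted as +1, the CCAAT match began at position -53 in KIF11, -22 in KIF14 and -45 in KIF18A, and the TTTGAA match at -28, 2 and -10. KIF20B had CCAAT matches at -131 and -98 and TTTGAA matches at 25 and 31. The motifs were not confined to genes called lower: KIFC1, whose level did not pass the test under CTCFL-KD, had CCAAT matches at -75 and -46 and a TTTGAA match at 5.

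Of 21 mitotic genes that are not kinesins, 7 were called lower under CTCFL-KD, beside 7.94% of all genes, and 13 were lower by adjusted p with any fold change, beside 16.8%. The other 8 did not pass the test, and the whole list had a median log2 fold change of -0.92. The largest falls among them were those of AURKA, TTK and TOP2A, a spindle kinase, a checkpoint kinase and a topoisomerase, at -1.26, -1.25 and -1.23 on the log2 scale. PLK1, named after its values were seen, was also at -1.23. The TOP2A call was lost without CTCFL-KD replicate 1 (-0.91), and those of TTK, TOP2A and CENPE with the offset for length and GC content (-0.99, -0.95 and -0.96). CENPE, the kinesin of the kinetochore, whose symbol falls outside the KIF names, measured 87.7, 104 and 89.9 CPM in Control and 29.8, 41.2 and 37.7 CPM under CTCFL-KD, a log2 fold change of -1.37. STARD9, the other kinesin named otherwise, was not called. In CTCFL-OE vs Control, edgeR called none of the 21 mitotic genes, 2 had an unadjusted p under 0.05 and DESeq2 called 0, and their median was 0.10.

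**Figure D2:**
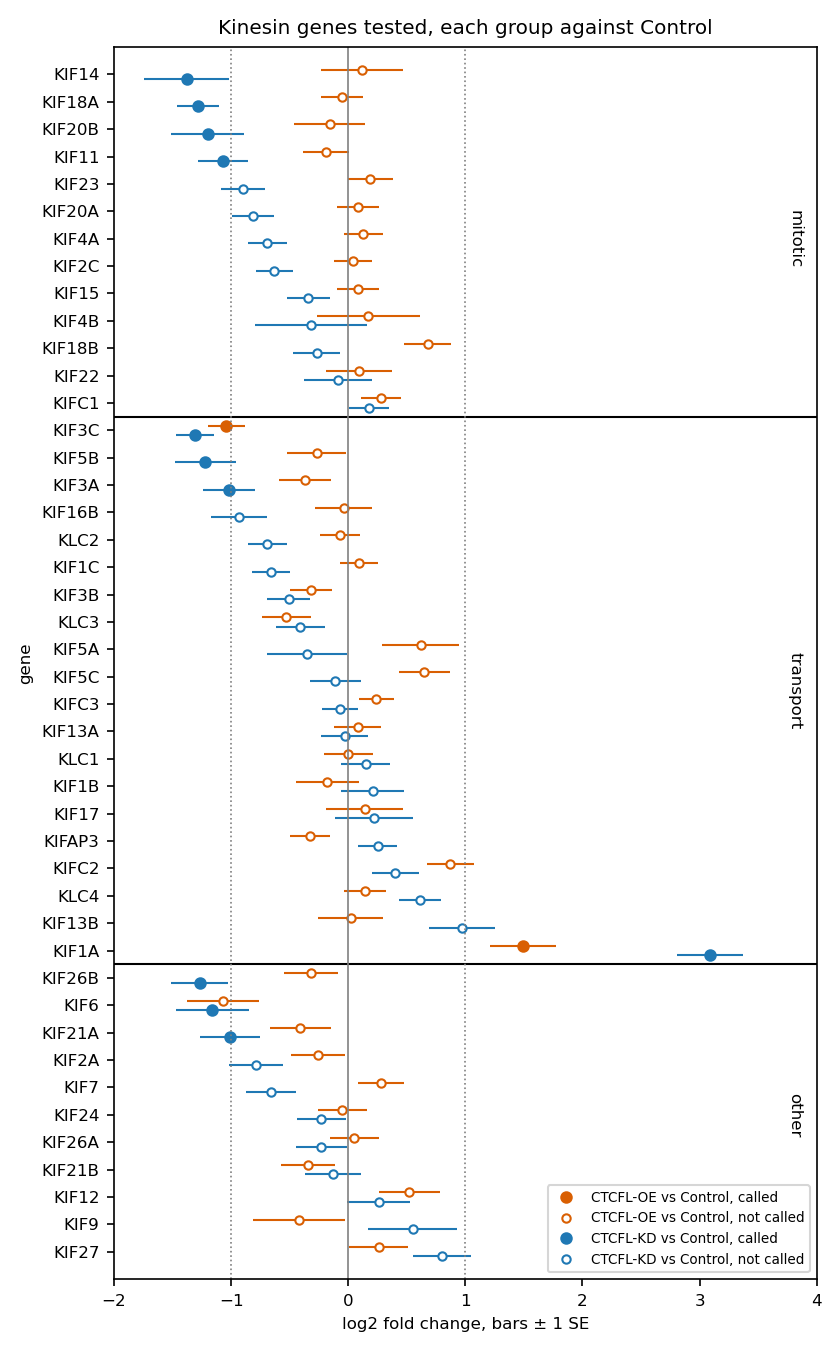
Log2 fold changes of the 44 kinesin genes tested in CTCFL-OE vs Control (orange) and CTCFL-KD vs Control (blue), with bars of 1 SE, filled points for called genes and dotted lines at a log2 fold change of -1 and 1. KIF1A at 1.49 and 3.09 and KIF3C at -1.04 and -1.31 are the genes called in both comparisons, which share the Control libraries.

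KIF1A, a kinesin-3 that carries dense-core and synaptic vesicle precursors and is best known from neurons, was the kinesin gene with the largest change. Its levels in replicates 1, 2 and 3 were 1.95, 1.94 and 1.77 CPM in Control, 3.19, 6.01 and 6.88 CPM under CTCFL-OE, and 14.3, 15.5 and 18.6 CPM under CTCFL-KD. The groups did not overlap, and the level was higher both with more and with less CTCFL. The mitochondrial share of counts also differed, at 6.52%, 6.31% and 6.16% in Control, 7.4%, 12.4% and 14.9% with CTCFL-OE and 11.8%, 9.64% and 7.8% with CTCFL-KD, and its part in the KIF1A result was not tested. The log2 fold change was 1.49 ± 0.28 (SE) under CTCFL-OE, 2.81-fold, with an adjusted p of 0.0375, and 3.09 ± 0.28 under CTCFL-KD, 8.51-fold, with an adjusted p of 2.69e-05 (edgeR's quasi-likelihood test and Benjamini-Hochberg adjustment). Per kb of exon, KIF1A made up 0.42% ± 0.0366 (SD, n = 3) of the summed KIF1A, KIF1B and KIF1C level in Control, 1.19% ± 0.433 under CTCFL-OE and 4.25% ± 0.68 under CTCFL-KD. It therefore remained the least abundant of the 3 KIF1 genes in every library. The CTCFL-OE call depended on single libraries: the adjusted p by edgeR with Benjamini-Hochberg adjustment was 0.174 without CTCFL-OE replicate 2, 0.14 without CTCFL-OE replicate 3, and 0.192, 0.188 and 0.217 without Control replicate 1, 2 or 3, with log2 fold changes from 1.27 to 1.51 and a range of adjusted p over all 19 alternatives from 4.07e-05 to 0.217. The CTCFL-KD call held in all 19 alternatives, with log2 fold changes from 2.82 to 3.17.

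Other genes typical of neurons did not move as 1 group. Of 12 neuronal markers, 5 had 3 counts or fewer in every library, namely SNAP25, ELAVL4, STMN2, NEFL and NEFM, and ELAVL4, STMN2, NEFL and NEFM were at 0 throughout. The summed level of the 12 was 16.6, 15.8 and 16.1 CPM in Control, 8.62, 9.56 and 8.11 CPM under CTCFL-OE and 11.2, 11.3 and 14.5 CPM under CTCFL-KD, so it was lower in both groups in which KIF1A was higher. Only 4 of the 12 were tested. The most abundant was RBFOX3, and both it and TUBB3 were called lower in each comparison, beside 0.702% of all genes with CTCFL-OE and 7.94% with CTCFL-KD, TUBB3 with log2 fold changes of -1.33 under CTCFL-OE and -2.82 under CTCFL-KD. The CTCFL-OE calls of TUBB3 and RBFOX3 were lost without CTCFL-OE replicate 2 or 3 (adjusted p by edgeR with Benjamini-Hochberg adjustment of 0.147 and 0.122 for TUBB3, 0.109 and 0.161 for RBFOX3) or Control replicate 1, 2 or 3 (0.184, 0.176 and 0.12, and 0.214, 0.176 and 0.242). SYT1 was called higher under CTCFL-KD, beside 15.3% of all genes. ELAVL3 measured 1.53, 2.2 and 2.14 CPM under CTCFL-KD against at most 0.101 CPM in Control. It passed the low-count filter only through the CTCFL-KD libraries, so no call of it is given. The part of these genes in the KIF1A result was not tested.

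KIF3C, a kinesin-2 motor subunit that pairs with KIF3A, was lower in both groups. Its levels in replicates 1, 2 and 3 were 51.6, 45.9 and 48.2 CPM in Control, 22.6, 22.1 and 26.1 CPM under CTCFL-OE, and 17.8, 19.7 and 21.3 CPM under CTCFL-KD. The Control libraries stood above all others, and all CTCFL-KD libraries lay just below the lowest CTCFL-OE library. The log2 fold change was -1.04 ± 0.16 (SE) under CTCFL-OE, with an adjusted p of 0.0142, and -1.31 ± 0.16 under CTCFL-KD, with an adjusted p of 0.000155 (edgeR's quasi-likelihood test and Benjamini-Hochberg adjustment). The CTCFL-KD call held in all 19 alternatives. Under CTCFL-OE the adjusted p by edgeR with Benjamini-Hochberg adjustment was 0.101 without CTCFL-OE replicate 2 and 0.117 and 0.113 without Control replicate 1 or 3, within a range from 5.85e-08 (DESeq2) to 0.117 over all alternatives, and upper-quartile scaling gave a log2 fold change of -0.99, just inside the fold threshold.

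The study lists a predicted CTCFL binding site for KIF3C, which is shown because KIF3C changed in both comparisons. It also compared its predicted sites with public CTCFL and CTCF ChIP-seq data from another ovarian cancer cell line. The genes it named as having a matching peak did not include KIF3C. Matched here to GRCh38 within the KIF3C gene (chr2:25926598-25982749, minus strand), the listed letters occurred once, at chr2:25927296-25927306 on the minus strand. In GENCODE 44 this place lies in an exon after the stop codon, in the 3′ UTR of 3 KIF3C transcripts. It is 55.4 kb from the most upstream KIF3C start and 24.6 kb from the nearest of the starts of the 7 annotated transcripts. The study's own search was of sequence around starts, whereas the letters had 0 matches on either strand within 2 kb of the 5 different start positions annotated here, and the reason for the difference was not tested. The capitals mark AGGNGGC, a short core shared by CTCF and CTCFL motifs, where N is any base.
KIF3C listed site: caccAGGTGGC

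The same core was searched on both strands of the promoters. It occurred in at least 1 promoter of 10 of 14 transport kinesins, 5 of 14 mitotic kinesins and 4 of 9 others, beside 35.9% of all 35116 promoters and 39.7% of all genes with a promoter. The RefSeq promoters of KIF3C and KIF1A nearest to the annotated 5′ end of each gene held 1 match apiece, in capitals. The stretches shown lie at chr2:25982565-25982611 and chr2:240821354-240821399 and are printed on the gene's strand, the minus strand. The core AGGNGGC itself is on the plus strand in both, so it appears as GCCNCCT, and neither stretch holds the listed letters.
KIF3C promoter: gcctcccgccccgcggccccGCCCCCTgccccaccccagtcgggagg
KIF1A promoter: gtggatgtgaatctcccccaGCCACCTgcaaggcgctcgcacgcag

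The partners of KIF3C in kinesin-2 did not share its call in both comparisons. KIF3A, the shared motor subunit, measured 26.4, 28.9 and 29.2 CPM in Control, 25.4, 21.6 and 18.5 CPM under CTCFL-OE and 9.56, 14.4 and 17.5 CPM under CTCFL-KD. It was called lower under CTCFL-KD only, at -1.02 ± 0.22 (SE) on the log2 scale with an adjusted p of 0.0049 by edgeR with Benjamini-Hochberg adjustment, although its CTCFL-OE values were also all below the Controls (log2 fold change of -0.37, not past the test). The CTCFL-KD call was lost without CTCFL-KD replicate 1 (-0.81), with the offset for length and GC content (-0.67) and, at the fold threshold, with upper-quartile scaling. KIFAP3, the adaptor of kinesin-2, named here after its values were seen, passed in neither comparison, with log2 fold changes of -0.33 and 0.25. KIF3B, the alternative partner of KIF3A, had log2 fold changes of -0.32 under CTCFL-OE and -0.51 under CTCFL-KD, the latter past the adjusted p in the fit of all libraries (0.0482 by edgeR with Benjamini-Hochberg adjustment) but in only 9 of 19 alternatives, where it reached 0.143 without Control replicate 2. Per kb of exon, KIF3C made up 21.7% ± 2.11 (SD, n = 3) of the summed KIF3B and KIF3C level in Control, 14.4% ± 2.05 under CTCFL-OE and 13.9% ± 1.52 under CTCFL-KD. The lowest Control share, 19.8%, was above the highest share in either other group, 16.7%.

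KIF5B, the ubiquitous kinesin-1 heavy chain, was the kinesin gene with the highest Control level, 44.1 ± 2.61 CPM per kb (SD, n = 3). It measured 244, 258 and 274 CPM in Control, 230, 208 and 204 CPM under CTCFL-OE and 65.3, 133 and 133 CPM under CTCFL-KD. The log2 fold change was -0.27 ± 0.25 (SE) under CTCFL-OE, which did not pass the test, and -1.22 ± 0.26 under CTCFL-KD, with an adjusted p of 0.00376 by edgeR with Benjamini-Hochberg adjustment. That call was lost without CTCFL-KD replicate 1 (-0.95) and with the offset for length and GC content (-0.93). KIF5B still made up 97.1% ± 0.454 (SD, n = 3) of the KIF5 level per kb under CTCFL-KD, beside 98.5% ± 0.188 in Control. KIF1C, a kinesin-3 of secretory traffic, was lower under CTCFL-KD by adjusted p alone, at -0.66 ± 0.16 on the log2 scale. Of the 20 transport kinesins, all tested, 3 were called lower and 1 higher under CTCFL-KD, beside 7.94% and 15.3% of all genes, and with any fold change 7 were lower and 3 higher by adjusted p, beside 16.8% and 21.4%. The other 16 had log2 fold changes from -0.93 to 0.97, and 18 were not called under CTCFL-OE, from -0.53 to 0.87. The upper ends were KIF13B under CTCFL-KD and KIFC2 under CTCFL-OE, both named after their values were seen and both past the adjusted p alone (0.0192 and 0.0688 by edgeR with Benjamini-Hochberg adjustment). The median of the group was 0.01 under CTCFL-OE and -0.09 under CTCFL-KD.

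**Figure D3:**
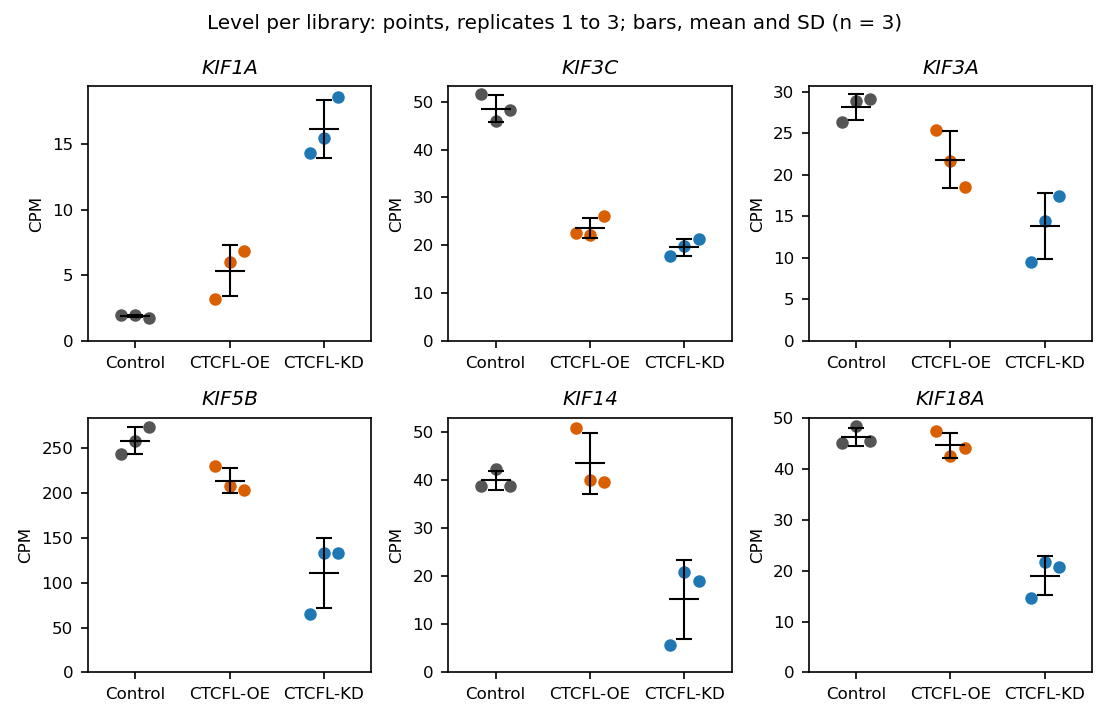
Levels of 6 kinesin genes in CPM by group, with points for replicates 1, 2 and 3 and bars for the mean and SD (n = 3). KIF1A and KIF3C differ from Control in both groups, whereas KIF5B, KIF14 and KIF18A were called under CTCFL-KD only, as was KIF3A, and CTCFL-KD replicate 1 is the lowest library for all 4.

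Among the other kinesins, 11 of 13 were tested, and 3 were called lower under CTCFL-KD, beside 7.94% of all genes. With any fold change, 5 were lower by adjusted p, beside 16.8%, and 1 was higher, beside 21.4%. KIF26B, an atypical kinesin without motor activity, measured 17.7, 18.2 and 20.3 CPM in Control and 4.78, 9.45 and 8.87 CPM under CTCFL-KD, a log2 fold change of -1.27 ± 0.24 (SE). KIF21A, a kinesin-4 that restrains microtubule growth at the cell cortex, measured 59.9, 64.1 and 61.7 CPM in Control and 17, 40.4 and 34.3 CPM under CTCFL-KD, a log2 fold change of -1.01 ± 0.26. The KIF21A call was lost without CTCFL-KD replicate 1 (-0.73), with the offset for length and GC content (-0.84) and with upper-quartile scaling (-0.99). KIF26B and KIF21A were also below every Control library under CTCFL-OE, where neither passed the test. KIF6, a kinesin-9 of motile cilia, measured 3.86, 3.89 and 4.71 CPM in Control, 2.78, 1.93 and 1.11 CPM under CTCFL-OE and 1.89, 1.49 and 2.19 CPM under CTCFL-KD. Its log2 fold change was -1.07 ± 0.31 (SE) under CTCFL-OE, with an adjusted p of 0.118, and -1.16 ± 0.31 under CTCFL-KD, with an adjusted p of 0.0143 (edgeR's quasi-likelihood test and Benjamini-Hochberg adjustment). The CTCFL-KD call of KIF6 was lost without CTCFL-KD replicate 2 (adjusted p of 0.0531 by edgeR with Benjamini-Hochberg adjustment) or Control replicate 3 (0.055), with a range from 0.000924 to 0.055 over all alternatives. Conversely, it was called lower under CTCFL-OE without CTCFL-OE replicate 1 (adjusted p of 0.0323 by edgeR with Benjamini-Hochberg adjustment) or CTCFL-KD replicate 1 (0.0364). KIF2A, a kinesin-13 that depolymerises microtubules, was lower under CTCFL-KD by adjusted p alone at -0.79 ± 0.23, though not without Control replicate 2 or 3 (adjusted p of up to 0.0615 by edgeR with Benjamini-Hochberg adjustment). KIF24, a kinesin-13 of the centriole, passed in neither comparison, with log2 fold changes of -0.05 and -0.23. In CTCFL-OE vs Control edgeR called 0 of the 11, DESeq2 called 1, which was KIF6, and 1 had an unadjusted p under 0.05.

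Cilia were examined further because of KIF6 and the kinesin-2 genes. Of 7 markers of ciliated cells, DNAH9 and TEKT1 had 3 counts or fewer in every library, and the most abundant was DNAH5. The summed level was 21.3, 22.5 and 24.2 CPM in Control, 18.5, 19.2 and 15.8 CPM under CTCFL-OE and 27.5, 21 and 20 CPM under CTCFL-KD. FOXJ1, the master regulator of motile cilia, measured 0.301, 0.194 and 0.405 CPM in Control and 10.4, 6.66 and 8.44 CPM under CTCFL-KD. It passed the low-count filter only through the CTCFL-KD libraries, so no call of it is given. DNAH5 was called lower under CTCFL-KD, at -1.58 on the log2 scale, beside 7.94% of all genes. Of the 4 ciliated-cell markers tested, edgeR called 0 in CTCFL-OE vs Control, DESeq2 called 0, and 1 had an unadjusted p under 0.05. The part of these genes in the kinesin results was not tested.

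CTCFL-KD replicate 1 stood apart from replicates 2 and 3 in a way that followed transcript length. Among genes averaging over 2 CPM, placed in 5 classes by their longest annotated transcript, its median log2 ratio to the Control mean, after adding 0.5 CPM to both, went from 0.71 in the shortest class (up to 2 kb) to -0.54 in the longest (from 6.18 kb), whereas the same medians were -0.12 and 0.08 in replicate 2 and -0.11 and 0.07 in replicate 3. Kinesin transcripts are long, with a median of 5.64 kb over the 44 tested genes beside 3.89 kb over all protein-coding genes tested. The median log2 ratio of the mitotic kinesins was -0.82, -0.60 and -0.78 in replicates 1, 2 and 3, that of the transport kinesins -0.49, 0.01 and -0.10, and that of the others -0.80, -0.20 and -0.43. Without CTCFL-KD replicate 1, 5 kinesin genes were called lower in place of 10, all 5 of them among the 10, namely KIF14, KIF18A, KIF3C, KIF6 and KIF26B, and 3 were called higher, with KIF13B and KIF27, named after their values were seen, joining KIF1A. The log2 fold changes without it were -0.93 for KIF11, -0.88 for KIF20B, -0.81 for KIF3A, -0.95 for KIF5B and -0.73 for KIF21A, each inside the fold threshold and still past the adjusted p. By adjusted p alone, 9 mitotic kinesins were then lower in place of 8. With the replicate block and an offset for length and GC content, the log2 fold changes of KIF11, KIF18A, KIF20B, KIF3A, KIF5B and KIF21A were -0.76, -0.91, -0.82, -0.67, -0.94 and -0.86, all past the adjusted p alone, and 4 kinesin genes were called lower and 2 higher. The part of transcript length in the differences was not otherwise tested.

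**Figure D4:**
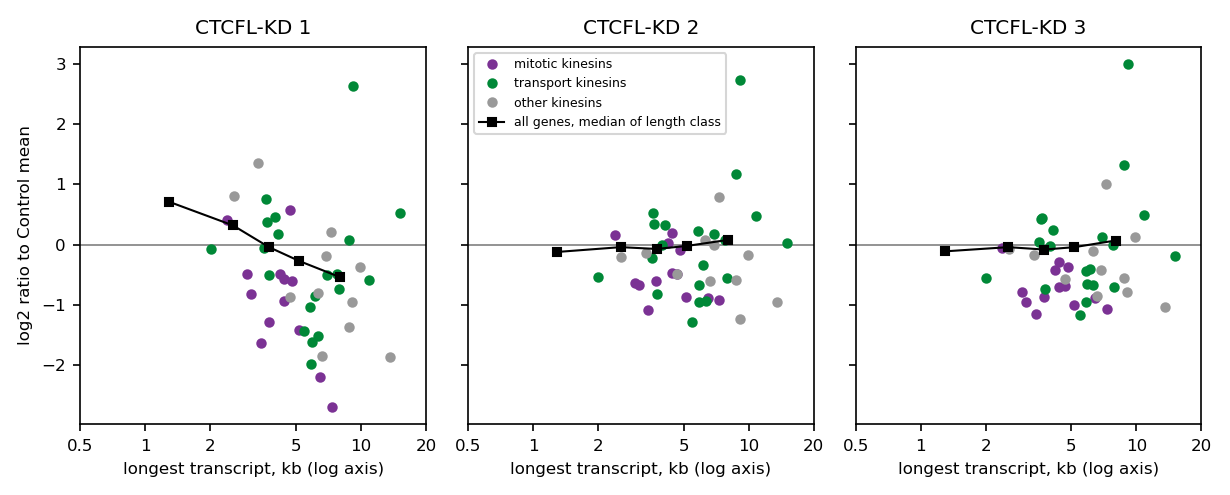
Log2 ratio of each tested kinesin gene to its Control mean against the length of its longest transcript in kb (log axis), in the 3 CTCFL-KD libraries, with black squares for the medians of all genes in 5 length classes. In replicate 1 the squares fall from 0.71 to -0.54, while in replicates 2 and 3 they stay between -0.12 and 0.08 and the mitotic kinesins still lie mostly below 0.

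The difference between both manipulations was tested directly as CTCFL-KD vs CTCFL-OE. At an adjusted p under 0.05, 1 kinesin gene was called higher, beside 10.6% of all genes, and 4 were called lower, beside 6.42%. KIF1A was the gene called higher, with a log2 difference of 1.60 ± 0.26 (SE) and an adjusted p of 0.00141 by edgeR's quasi-likelihood test and Benjamini-Hochberg adjustment. The 4 called lower were mitotic kinesins, namely KIF14 at -1.51 ± 0.36, KIF18A at -1.23 ± 0.18, KIF20B at -1.05 ± 0.31 and KIF23, a kinesin-6 of the central spindle named after its values were seen, at -1.08 ± 0.19. The KIF20B call was lost without CTCFL-KD replicate 1 (-0.73), CTCFL-OE replicate 1 (-0.89) or CTCFL-OE replicate 2 (-1.15, with an adjusted p of 0.0501 by edgeR with Benjamini-Hochberg adjustment), and that of KIF23 without CTCFL-KD replicate 1 (-0.92). Both were also lost with the offset for length and GC content (-0.80 and -0.98), and KIF20B with edgeR on the 2 groups alone. With that offset the 4 called lower were KIF14, KIF18A, KIF26B and KIF5A, of which KIF26B and KIF5A are not mitotic kinesins. KIF5A was named after its values were seen. KIF26B and KIF5B were called lower in 6 and 4 of 19 alternatives. KIF3C did not pass this test, with a log2 difference of -0.26 ± 0.16 and an adjusted p of 0.24 by edgeR with Benjamini-Hochberg adjustment, and neither did KIF6 at -0.08 ± 0.33. The median log2 difference was -0.89 over the 13 mitotic kinesins, -0.23 over the 20 transport kinesins and -0.27 over the 11 others, beside 0.04 over all genes tested. The number called was 4 to 13 when 1 library was left out, with 13 without CTCFL-KD replicate 2, 9 without CTCFL-KD replicate 3 and 8 without CTCFL-OE replicate 1.

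The opposing motor and the kinesin adaptors were examined beside the kinesins. Of 25 genes of dynein, dynactin and their regulators, 24 were tested, and 2 were called lower under CTCFL-KD, the dynein light chain DYNLT3 at -1.42 and the light intermediate chain DYNC1LI2 at -1.10 on the log2 scale, beside 7.94% of all genes. The DYNC1LI2 call was lost without CTCFL-KD replicate 1 (-0.74), without Control replicate 2 or 3 (adjusted p of 0.0628 and 0.056 by edgeR with Benjamini-Hochberg adjustment), with the offset for length and GC content (-0.92) and with edgeR on the 2 groups alone. By adjusted p with any fold change, 7 were lower and 1 higher, beside 16.8% and 21.4% of all genes, and the median was -0.30. Under CTCFL-OE the median was -0.28, and edgeR called 0 of the 24, with 4 at an unadjusted p under 0.05 and 0 called by DESeq2. Of 13 adaptors and regulators of kinesins, 12 were tested. MAPK8IP2, a scaffold that binds kinesin light chains, was the only one called, lower under CTCFL-KD at 0.812, 1.72 and 0.876 CPM against 4.96, 4.08 and 4.91 CPM in Control, beside 7.94% of all genes called lower. With any fold change, 3 including MAPK8IP2 were lower by adjusted p, beside 16.8% of all genes, and 1 was higher, beside 21.4%. Under CTCFL-OE edgeR called 0 of the 12, DESeq2 called 0, and 1 had an unadjusted p under 0.05.

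Some counts could be shared with other genes. Exons of 11 kinesin genes overlap those of another protein-coding gene, namely KIF2A, KIF4A, KIF5A, KIF7, KIF9, KIF20A, KIF24, KIFC2, KLC1, KLC3 and KLC4, and none of these was called in a comparison with Control. With other genes of any type, 25 kinesin genes share exon bases. Among these were KIF3A (7 bases), called in CTCFL-KD vs Control, and KIF23 (231 bases), called in CTCFL-KD vs CTCFL-OE. The library kit marks the strand, but whether counting used it is not given in the sources used here, so reads from genes that overlap on opposite strands may not be told apart. KLC1 shares 5756 bases, 29.9% of its exon length, with XRCC3 on the opposite strand, and KIF2A 2446 bases or 18.7% with DIMT1.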

How the data were processed

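RNA from 9 OVCAR3 libraries was sequenced by the authors, who used Trimmomatic for trimming, STAR for alignment to GRCh38 and featureCounts for counts per gene. The labels also name kallisto, whose role is not given in the sources used here. The raw counts deposited by the authors, 60660 genes by 9 libraries, were used as they stand. Symbols, types, positions and lengths came from GENCODE 44, which named 60419 of the identifiers. Genes were filtered with filterByExpr, scaled by TMM and tested with edgeR 4.0.16 (quasi-likelihood, robust, R 4.3.3) on all 9 libraries with group as the only factor, Benjamini-Hochberg adjusted over all 17794 genes tested. The script was tested on simulated data. CPM per kb divides by the union of annotated exons. DESeq2 1.42.0 was an alternative, besides other filters, scalings and designs.

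Named were KIF1A, KIF3C, every kinesin gene called against Control, the 2 of each role with the highest Control level per kb among those not called, and, of other lists, up to 3 called genes per comparison. The kinesin genes and lists were chosen with earlier results of these data known. Same-numbered CTCFL-KD and Control libraries deviated together from their group means, with correlations across 13537 genes of 0.322, 0.184 and 0.219, so these numbers were taken as paired. Those of the other comparisons were not. 1 further marker list is not reported here.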

Additional observations from a re-analysis of the deposited data

How the results depend on the processing

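The number of kinesin genes called in CTCFL-OE vs Control, 2, was 1 with upper-quartile scaling, 3 with KIF6 added under DESeq2, edgeR on the 2 groups alone, no low-count filter or the length and GC offset with or without the replicate block, and 0 to 4 when 1 library was left out. In CTCFL-KD vs Control it was 11, and 6 with the length and GC offset, 6 with the replicate block and that offset, 9 with upper-quartile scaling, 24 by adjusted p alone and 8 to 12 when 1 library was left out. In CTCFL-KD vs CTCFL-OE it was 5, and 9 without the low-count filter, 19 by adjusted p alone and 4 to 13 when 1 library was left out. The replicate block alone gave 2, 11 and 7 genes in the 3 comparisons, and for the paired comparison, CTCFL-KD vs Control, it changed no call of a kinesin gene. In CTCFL-OE vs Control only replicate 2 deviated with its Control of the same number (correlation of 0.219), and in CTCFL-KD vs CTCFL-OE none did (0.00815, 0.076 and 0.0152). With the length and GC trend removed, the CTCFL-KD vs CTCFL-OE values were 0.0945, 0.161 and 0.0562. Each was then higher than with a library of another number. The CTCFL-KD vs Control values were 0.148, 0.126 and 0.13, so the 2 comparisons were less unlike on that scale. The causes of these shifts were not tested. No called log2 fold change of a named kinesin gene changed sign under any alternative run. Among 969 such values for 17 genes, 898 kept their direction and side of the threshold, 36 no longer passed, 20 newly passed and 15, all of genes not called, crossed 0. Over all genes, CTCFL-OE vs Control gave 368 calls, 642 with DESeq2, 835 with edgeR on the 2 groups alone and 44 to 1184 when 1 library was left out.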

Other observations

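Fibroblast markers were low or mixed. Of 8 fibroblast markers, 3 were tested, the most abundant was COL1A1, and the summed level was 33.5, 32 and 27.6 CPM in Control, 24.7, 36.6 and 43.8 CPM in CTCFL-OE and 42, 38.6 and 37 CPM in CTCFL-KD. COL1A2 had 0 counts in all 3 Control libraries and measured 14.1, 14.2 and 13.5 CPM in CTCFL-KD. It passed the low-count filter only through the CTCFL-KD libraries, so no test of it is given. In CTCFL-OE vs Control edgeR called 0 of the 3 fibroblast markers tested, DESeq2 called 0, and 1 had an unadjusted p under 0.05.

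Of the 8 ovarian carcinoma markers, 4 were called higher in CTCFL-KD, beside 15.3% of all genes, and 1 lower, beside 7.94%, and 0 were called in CTCFL-OE by edgeR or DESeq2, with 1 at an unadjusted p under 0.05. MUC16, which encodes the antigen CA125, measured 188, 283 and 195 CPM in Control and rose with a log2 fold change of 2.84 in CTCFL-KD, beside KRT18 at 1.76, while KRT8 measured 1605, 1680 and 1625 CPM in Control and 5710, 3346 and 3218 CPM in CTCFL-KD. KRT7, at -1.12, was the marker called lower, and WT1 was lower by adjusted p alone at -0.63, both named after their values were seen. The summed level of the 8 was 5155, 5278 and 5176 CPM in Control, 4856, 4643 and 4352 CPM in CTCFL-OE and 14110, 9336 and 8775 CPM in CTCFL-KD, highest in CTCFL-KD replicate 1.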
